A study of Mus musculus with 12 samples.

Results

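The proteasome is the protease that degrades ubiquitin-tagged proteins, and 99 probe sets of its genes were compared between differentiated and undifferentiated mouse embryonic stem cells. They were chosen by symbol: each has a single platform gene symbol made of Psma, Psmb, Psmc, Psmd, Psme, Psmf or Psmg and a number, with the immunoproteasome subunits Psmb8, Psmb9 and Psmb10 left out. These 99 of 45265 probe sets represent 44 of the 18193 genes named by a single symbol, with 80 probe sets of 43 genes on the Affymetrix array MOE430A (array A) and 19 probe sets of 14 genes on MOE430B (array B). The cells are R1, an established line from a mouse blastocyst. Of the 6 RNAs, D1 to D3 are labelled differentiated, in a study of embryoid bodies, floating clusters in which differentiation starts, and U1 to U3 are labelled undifferentiated. Each RNA went once to each array, which makes 12 arrays. For both groups the labels give the same medium with serum and the same bacterial dishes for 5 days, so the difference in culture rests on the group names, and a purity judged by eye is stated for the undifferentiated RNAs alone. Whether the 3 RNAs within a group are independent cultures is not labelled, and the p-values below therefore reflect a spread among RNAs that may be technical.

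The catalytic core of the proteasome is a barrel of alpha rings, which gate the entrance, and beta rings, which hold the active sites. A regulatory cap with a ring of ATPases, a base and a lid binds ubiquitin chains, removes them and feeds the unfolded substrate into the core, while other activators can bind the core in place of the cap, and dedicated chaperones assemble both. In human embryonic stem cells, high proteasome activity and the lid subunit PSMD11 are known to decline on differentiation, and in mouse stem cells the PA28 activator and the immunoproteasome are known for clearing damaged proteins early in differentiation.

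No proteasome probe set passed the test between differentiated and undifferentiated RNAs, and nearly all differences were small. On array A, 73 of the 80 probe sets were bright enough to be tested, and limma with Benjamini-Hochberg adjustment over all 18025 tested probe sets called 0 of them, where it called 2.87% of all probe sets, 1.31% as higher and 1.56% as lower. At an unadjusted p under 0.05 there were 6 of 73, 3 higher and 3 lower, against 15.8% of all. Groups that did not overlap were seen for 14 of 73 (9 higher and 5 lower), beside 21.1% of all probe sets (11% higher and 10.1% lower), so this share is near the background. The median log2 difference (differentiated minus undifferentiated, here and below) of the 73 was 0.11, beside 0.02 over all tested, and it ranged from -0.86 to 0.95. None of the 73 differed by 2-fold or more, while 1697 of the 18025 did. Members are brighter than most probe sets, and at a mean log2 signal of at least 10 it was 0 of 44 members beside 119 of 3102. On array B, 17 of 19 were tested and 0 were called, with 1 at an unadjusted p under 0.05. Over all 20344 probe sets of that array the shares were 0.0197% called (0.00983% higher and 0.00983% lower) and 5.24% at an unadjusted p under 0.05. Groups did not overlap for 5 of the 17, 3 higher and 2 lower, beside 5.96% and 5.32% of all, or 11.3% together, and all but Psma1 among these 5 had a mean log2 signal under 10. The median of the 17 was -0.04, beside 0.03 over all tested on array B, and 2 of them differed by 2-fold or more.

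The 95% intervals of the differences show how large a difference between the groups the spread among RNAs leaves room for. That spread may be technical, as stated above. The intervals include nothing for the fluidics station, which on array A divides the arrays as the groups do, or for the array lot. They therefore describe the measured group difference and do not bound the effect of differentiation alone. With a mean log2 signal of at least 10, a split chosen after the values were seen, 44 probe sets of 34 proteasome genes on array A all had an interval inside 2-fold in both directions, as did 85.7% of the 3102 probe sets this bright. The widest bounds among the 44 were a fold of 0.504 for one probe set of Psma5 and 1.77 for one of Psma7. The median absolute log2 difference of the 44 was 0.16, beside 0.23 over all probe sets this bright. Of these 44, 9 had groups that did not overlap, beside 35.8% of the bright probe sets, and 0 were called, beside 8.32%. Over all signal levels the interval lay inside 2-fold for 57 of the 73 tested, beside 44.2% of all probe sets on array A. For the 44 genes, each taken by 1 probe set (array A before array B, then the brightest), it did so for 40, and the exceptions are Psma8, Psmb11, Psmd10 and Psmg4. On array B it did so for 6 of 17, beside 14.2% of all, so that array bounds few of the members.

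**Figure D1:**
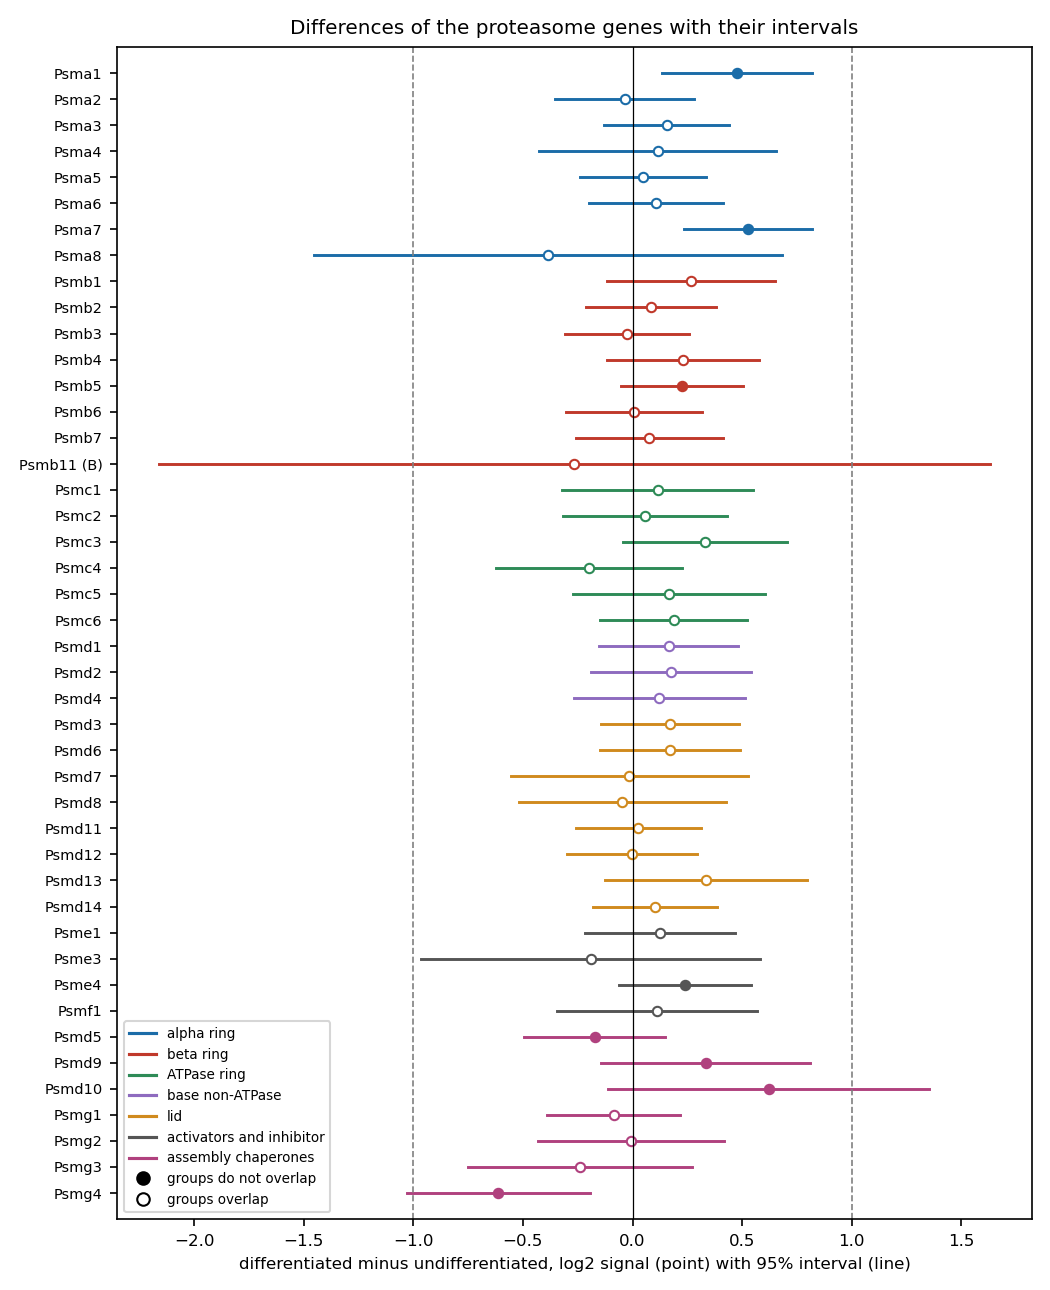
Difference of each of the 44 proteasome genes with its 95% interval. The horizontal axis is the differentiated minus undifferentiated log2 signal of the representative probe set, colours give the role, filled points mark groups that do not overlap, dashed lines mark 2-fold, and (B) marks the gene measured on array B alone. All but 4 intervals lie between the dashed lines, and those of Psma8 and Psmb11 are the widest.

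Promoters are shown for 4 genes on which the next paragraphs turn. Psma1 and Psma7 had the highest differences in the core by their brightest probe sets, and Psmb5 is a catalytic subunit. Psmg4 is 1 of the 2 assembly chaperones that were lower without overlap by their brightest probe sets. None of the 4 passed the test. RefSeq sequences of build GRCm38.p6, from 250 bases before to 50 after the start of the gene, were matched for 36 of the 44 genes. Not matched were Psma8, Psmb1, Psmb2, Psmb7, Psmc3, Psmd3, Psmd7 and Psmg2. Capitals mark 4 motifs, searched on both strands. The core of the antioxidant response element, which the proteasome regulators Nfe2l1 and Nfe2l2 bind, was spelled TGACNNNGC. The motif of the CCAAT box was spelled by those 5 letters. The GC box, which factors of the Sp family bind, was spelled GGGCGG. The core that ETS factors bind was spelled CCGGAAG. The windows are chr7:114276067-114276366, minus strand, for Psma1, chr2:180042415-180042714, minus strand, for Psma7, chr14:54617946-54618245, minus strand, for Psmb5, and chr13:34162714-34163013, plus strand, for Psmg4.
Psma1: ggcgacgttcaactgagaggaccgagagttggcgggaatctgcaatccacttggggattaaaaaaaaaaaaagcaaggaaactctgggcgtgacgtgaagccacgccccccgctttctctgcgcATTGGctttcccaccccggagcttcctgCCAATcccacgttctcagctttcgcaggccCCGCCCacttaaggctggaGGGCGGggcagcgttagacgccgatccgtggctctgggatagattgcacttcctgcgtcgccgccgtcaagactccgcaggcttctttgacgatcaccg
Psma7: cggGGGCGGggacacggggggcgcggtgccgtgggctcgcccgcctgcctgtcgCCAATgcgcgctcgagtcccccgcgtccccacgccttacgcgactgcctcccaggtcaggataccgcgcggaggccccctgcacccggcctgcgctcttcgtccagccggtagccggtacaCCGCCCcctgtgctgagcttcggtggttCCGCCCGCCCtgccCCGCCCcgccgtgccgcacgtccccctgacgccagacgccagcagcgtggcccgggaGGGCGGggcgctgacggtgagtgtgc
Psmb5: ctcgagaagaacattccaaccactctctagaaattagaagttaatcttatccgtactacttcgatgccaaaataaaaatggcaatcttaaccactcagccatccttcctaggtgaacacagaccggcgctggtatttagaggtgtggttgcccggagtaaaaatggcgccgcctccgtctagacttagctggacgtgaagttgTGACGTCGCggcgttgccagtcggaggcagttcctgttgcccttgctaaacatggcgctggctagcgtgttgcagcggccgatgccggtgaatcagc
Psmg4: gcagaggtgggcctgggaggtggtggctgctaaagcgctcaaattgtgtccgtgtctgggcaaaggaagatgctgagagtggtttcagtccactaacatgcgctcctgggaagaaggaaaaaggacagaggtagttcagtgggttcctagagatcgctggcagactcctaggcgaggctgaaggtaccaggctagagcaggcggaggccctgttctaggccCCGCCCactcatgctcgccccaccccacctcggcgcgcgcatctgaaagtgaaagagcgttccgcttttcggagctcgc
In these windows the first base of the antioxidant core of Psmb5 lies 47 bases before the start, and no other motif of the 4 was found there. Psma1 holds CCAAT in both orientations and 2 GC boxes, Psma7 has 1 CCAAT and 6 GC boxes, of which the pair at 47 and 43 bases before the start overlap, and Psmg4 has a single GC box.

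Over the 36 genes with a promoter window, the ETS core was found for 14 (38.9%), beside 9.93% of all 27025 genes with a window and 12.9% of the 17492 that code for protein. The GC box was found for 21 (58.3%), beside 38.2% and 49.2%, CCAAT for 13 (36.1%), beside 41.1% and 42.3%, and the antioxidant core for 6 (16.7%), beside 14% and 14.8%. Those 6 genes are Psmb5, Psmb6, Psmc6, Psmd9, Psmd12 and Psme4. None of the 4 motifs contains another, matches may overlap in part, and a match describes letters and not a bound site.

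Among the alpha subunits of the core, 9 of 13 tested probe sets on array A lay above 0 and 4 below, with a median of 0.11, and on array B 2 of 3 lay above. Psma7, an alpha ring subunit, had the lowest adjusted p of all members. Its log2 signal was 11.59, 11.68 and 11.46 in D1 to D3 and 11.19, 10.93 and 11.02 in U1 to U3. All 3 differentiated RNAs lay above the undifferentiated ones, by 0.53 ± 0.13 (SE), a fold of 1.44 with a 95% interval of 1.18 to 1.77 (limma adjusted p = 0.0614), so it did not pass. The second probe set of Psma7 gave 0.25 ± 0.16 (SE), with groups that overlapped. Psma1 had 11.15, 10.92 and 11.03 in D1 to D3 against 10.81, 10.46 and 10.40 in U1 to U3, again without overlap, a difference of 0.48 ± 0.15 (SE, adjusted p = 0.147).

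The same Psma1 probe set is also on array B, where the same RNAs gave 12.35, 12.36 and 12.49 in D1 to D3 and 11.98, 11.84 and 12.01 in U1 to U3. The difference there was 0.46 ± 0.20 (SE, adjusted p = 0.841), again without overlap. It is a second hybridisation of the same 6 RNAs and adds no further sample. A further Psma1 probe set on array B lay the other way (-0.30 ± 0.39, SE). Psma5 shows how probe sets of 1 gene can part. Its brightest probe set had 11.47, 11.46 and 11.66 in D1 to D3 and 11.53, 11.33 and 11.58 in U1 to U3, which overlap (0.05 ± 0.13, SE). A second one, of similar brightness, had 11.17, 10.72 and 11.31 against 11.65, 11.72 and 11.74. Every differentiated RNA lay below every undifferentiated one, by -0.63 ± 0.16 (SE, adjusted p = 0.0636). The third probe set, dim and near the floor, was lower without overlap too (-0.86 ± 0.68, SE, adjusted p = 0.621). Its mean log2 signal was 5.63 in differentiated and 6.49 in undifferentiated RNAs. It thus passed the limit of 6 for testing only through the undifferentiated group, and its direction adds no support. Which of these follows the Psma5 transcript was not tested. Psma2 differed least in this ring (-0.04 ± 0.14, SE), and Psma8, the alpha subunit known from testis, was dim (-0.39 ± 0.48, SE).

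Of the beta subunits, 8 of 11 tested probe sets on array A lay above 0, with a median of 0.08. The 3 catalytic subunits of the standard core did not pass. Psmb5, which carries the chymotrypsin-like site, had 12.20, 12.53 and 12.36 in D1 to D3 and 12.18, 12.16 and 12.06 in U1 to U3. Those groups do not overlap, but D1 lay only 0.01 above U1, and the difference was 0.22 ± 0.13 (SE, adjusted p = 0.444). On array B the same Psmb5 probe set gave -0.19 ± 0.30 (SE) with overlap, so the direction was not repeated. Psmb6, the caspase-like subunit, had 11.66, 12.09 and 12.03 against 11.98, 11.82 and 11.96, a difference of 0.01 ± 0.14 (SE) and the smallest in this ring. Psmb7, the trypsin-like subunit, had 13.02, 13.53 and 13.39 against 13.41, 13.15 and 13.15 (0.08 ± 0.15, SE). The 95% intervals of the fold ran from 0.963 to 1.42 for Psmb5, from 0.81 to 1.25 for Psmb6 and from 0.836 to 1.33 for Psmb7.

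The structural beta subunit Psmb1 had the largest difference of the ring by its brightest probe set, at 11.63, 11.45 and 11.74 in D1 to D3 and 11.73, 11.15 and 11.14 in U1 to U3. There U1 was as high as the differentiated RNAs (0.27 ± 0.17, SE, adjusted p = 0.524). A dim Psmb1 probe set gave the highest difference of all members on array A, without overlap (0.95 ± 0.43, SE, adjusted p = 0.321), and the remaining one gave -0.09 ± 0.18 (SE). The dim one is of a kind that can bind related transcripts, as are the brightest probe sets of Psma6 and Psmc2. Psmb3 lay at -0.02 ± 0.13 (SE) by one probe set and at -0.39 ± 0.16 (SE, adjusted p = 0.252) by another. Psmb11, the subunit known from the thymus, was measured on array B alone, at 7.68, 8.88 and 6.14 against 8.20, 6.72 and 8.58, and its interval, from a fold of 0.224 to 3.10, bounds little. The 3 immunoproteasome subunits, which replace the catalytic ones after interferon, did not pass either. Psmb8 had a difference of -0.48 ± 0.54 (SE, adjusted p = 0.75), Psmb9 one of 0.78 ± 0.70 (SE, adjusted p = 0.673) and Psmb10 one of -0.53 ± 0.28 (SE, adjusted p = 0.405), with overlap in all 3. Of 10 interferon response genes 8 were tested and 0 were called, with a median of -0.46. Of these 8, 7 lay below 0. Irf1, Tap1 and Ifit1 (3 of 8) were lower without overlap, beside 10.1% of all probe sets on array A.

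**Figure D2:**
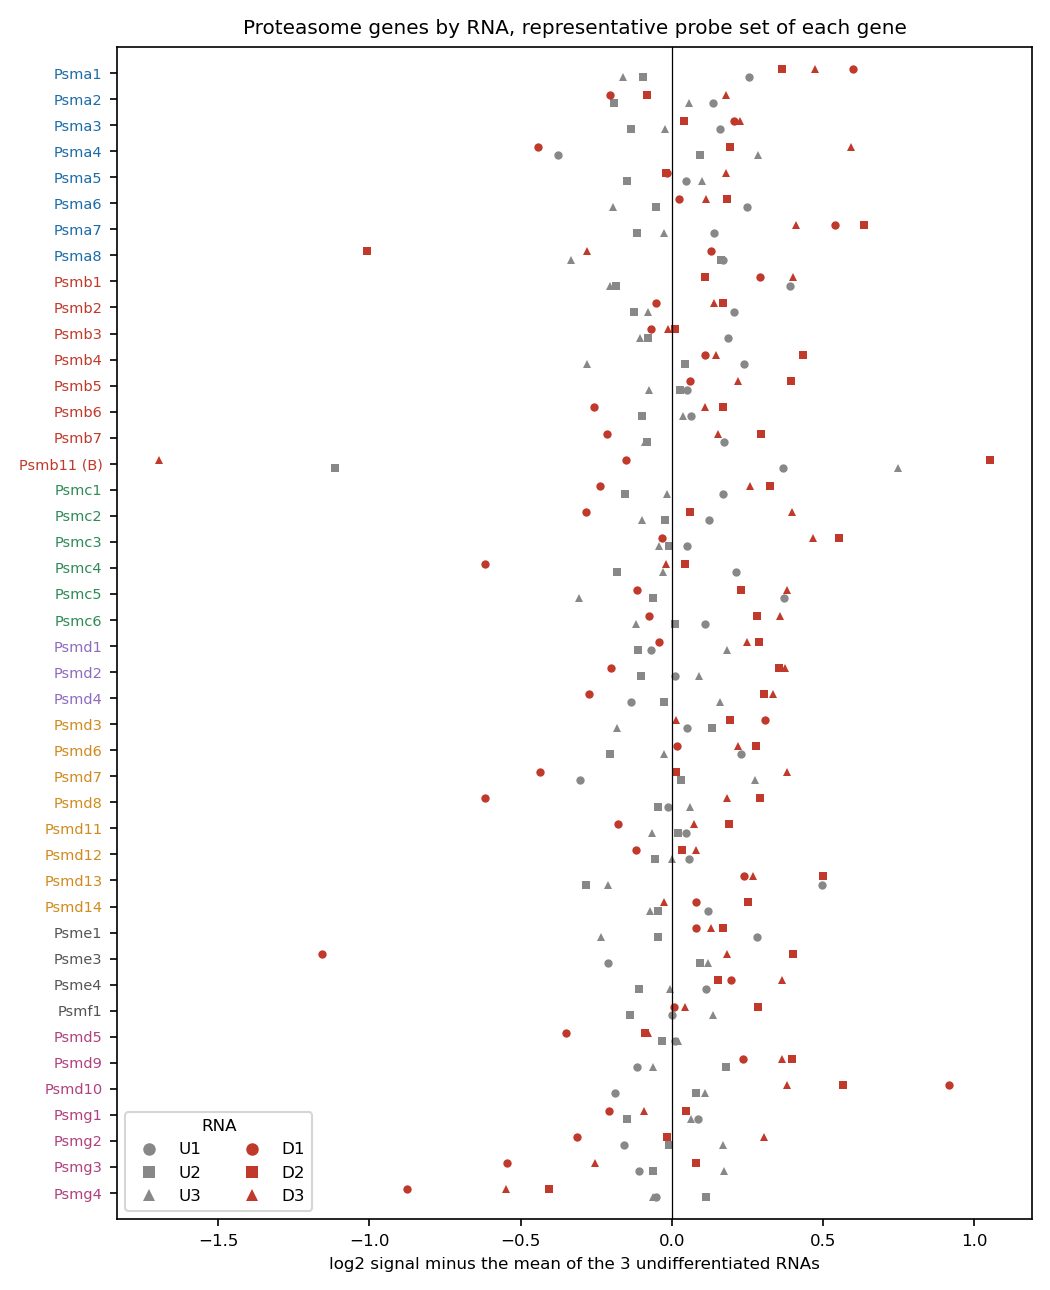
Values of the 44 proteasome genes in each RNA. The horizontal axis is the log2 signal of the representative probe set minus the mean of the 3 undifferentiated RNAs, grey marks are U1 to U3, red marks are D1 to D3, and name colours give the role. Red and grey marks overlap for all but 8 genes, of which Psma1, Psma7, Psmb5, Psme4, Psmd9 and Psmd10 have all red marks to the right, and Psmd5 and Psmg4 all red marks to the left.

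In the cap, the ATPases, which unfold the substrate, had 7 of 10 tested probe sets above 0 on array A and none there with groups apart. On array B 1 of 2 lay above 0, a dim Psmc2 probe set whose groups did not overlap (0.28 ± 0.47, SE, adjusted p = 0.919). Psmc3 had the largest difference, with 10.58, 11.16 and 11.08 in D1 to D3 and 10.66, 10.60 and 10.57 in U1 to U3. D2 and D3 were high and D1 lay within the undifferentiated range (0.33 ± 0.17, SE, adjusted p = 0.396). Psmc4 had 10.31, 10.97 and 10.91 against 11.14, 10.75 and 10.90, with D1 the lowest of the 6 (-0.20 ± 0.19, SE), and a dimmer Psmc4 probe set lay at 0.48 ± 0.36 (SE). Psmc2 had the smallest difference (0.06 ± 0.17, SE). The probe set of Psmc5 that is on both arrays gave 0.17 ± 0.20 (SE) on array A and -0.26 ± 0.25 (SE) on array B, with overlap on both.

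The 3 base subunits outside the ATPase ring had differences of similar size. Psmd2, the largest scaffold of the base together with Psmd1, had 11.40, 11.96 and 11.98 in D1 to D3 and 11.62, 11.50 and 11.70 in U1 to U3 (0.17 ± 0.17, SE). Psmd1 had 11.31, 11.64 and 11.60 against 11.28, 11.24 and 11.53 (0.16 ± 0.14, SE). The ubiquitin receptor Psmd4 had 10.97, 11.54 and 11.57 against 11.11, 11.21 and 11.40 (0.12 ± 0.18, SE). In all 3, D2 and D3 lay above every undifferentiated RNA and D1 did not, and no adjusted p was under 0.662. Psmd2 had a dim probe set on array B with the opposite sign and no overlap (-0.59 ± 0.35, SE, adjusted p = 0.841).

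In the lid, which removes ubiquitin chains, 11 of 15 probe sets on array A lay above 0, with a median of 0.10. Psmd13, a structural subunit, had 10.57, 10.83 and 10.60 in D1 to D3 and 10.83, 10.05 and 10.12 in U1 to U3, where U1 was as high as D2 (0.34 ± 0.21, SE, adjusted p = 0.498). Psmd3 followed (0.17 ± 0.14, SE), and Psmd12 had the smallest difference of the lid and of all 44 genes, with 10.59, 10.74 and 10.79 against 10.76, 10.65 and 10.71 and a 95% interval of 0.812 to 1.23 for the fold. Psmd11, the lid subunit named above for human stem cells, was read by 7 tested probe sets. The brightest had 12.37, 12.74 and 12.62 in D1 to D3 and 12.60, 12.57 and 12.48 in U1 to U3, which overlap (0.03 ± 0.13, SE, fold interval from 0.837 to 1.24). The other 4 on array A gave between -0.22 and 0.13, and 2 of them had groups apart, in opposite directions (-0.22 ± 0.13 and 0.10 ± 0.14, SE). On array B the larger of its values was 1.16 ± 0.66 (SE, adjusted p = 0.841), from a dim probe set whose groups barely parted, with D1 at 9.93 and the other RNAs between 6.94 and 8.46. Psmd14, the metalloprotease that cuts ubiquitin chains off, lay at 0.10 ± 0.13 (SE).

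Of the activators and the inhibitor, 9 of 10 probe sets on array A lay above 0. Psme4, which encodes an activator of the core known for its part in sperm and in DNA repair, had 10.96, 10.92 and 11.13 in D1 to D3 against 10.88, 10.65 and 10.76 in U1 to U3, without overlap (0.24 ± 0.14, SE, adjusted p = 0.455). A second Psme4 probe set on array A had no overlap either (0.37 ± 0.14, SE, adjusted p = 0.22), and the remaining one lay at 0.03 ± 0.16 (SE). On array B, a dim Psme4 probe set went the other way, with 6.64, 5.23 and 7.46 in D1 to D3 below 7.96, 8.58 and 8.59 in U1 to U3. That is the lowest difference of all members (-1.93 ± 0.72, SE, adjusted p = 0.841), so the probe sets of Psme4 differ in direction. Psme1, a subunit of the PA28 activator that interferon induces, had 10.94, 11.02 and 10.98 against 11.13, 10.81 and 10.62 (0.13 ± 0.15, SE). The nuclear activator Psme3 had 8.35, 9.91 and 9.69 against 9.29, 9.60 and 9.63, where D1 alone was low (-0.19 ± 0.35, SE), and the inhibitor Psmf1 lay at 0.11 ± 0.21 (SE).

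The assembly chaperones were the only role with more probe sets below 0 (5 of 9) than above on array A, with a median of -0.01, and this was not tested against the other roles. Psmg4, a chaperone of alpha ring assembly, had 8.99, 9.46 and 9.32 in D1 to D3 and 9.81, 9.98 and 9.81 in U1 to U3. All differentiated RNAs were lower, by -0.61 ± 0.19 (SE), a fold of 0.655 with an interval of 0.489 to 0.875 (adjusted p = 0.129). A dim Psmg4 probe set on array B lay at 0.65 ± 0.65 (SE) with overlap. Psmd10, also called gankyrin, which assists the base, had 8.47, 8.12 and 7.93 against 7.36, 7.63 and 7.66, all higher (0.62 ± 0.33, SE, adjusted p = 0.416). Psmd9, another base chaperone, was higher without overlap as well (0.33 ± 0.22, SE), and Psmd5, the third, was lower without overlap (-0.17 ± 0.15, SE). Psmg2, the partner of Psmg1, differed least (-0.01 ± 0.19, SE).

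**Figure D3:**
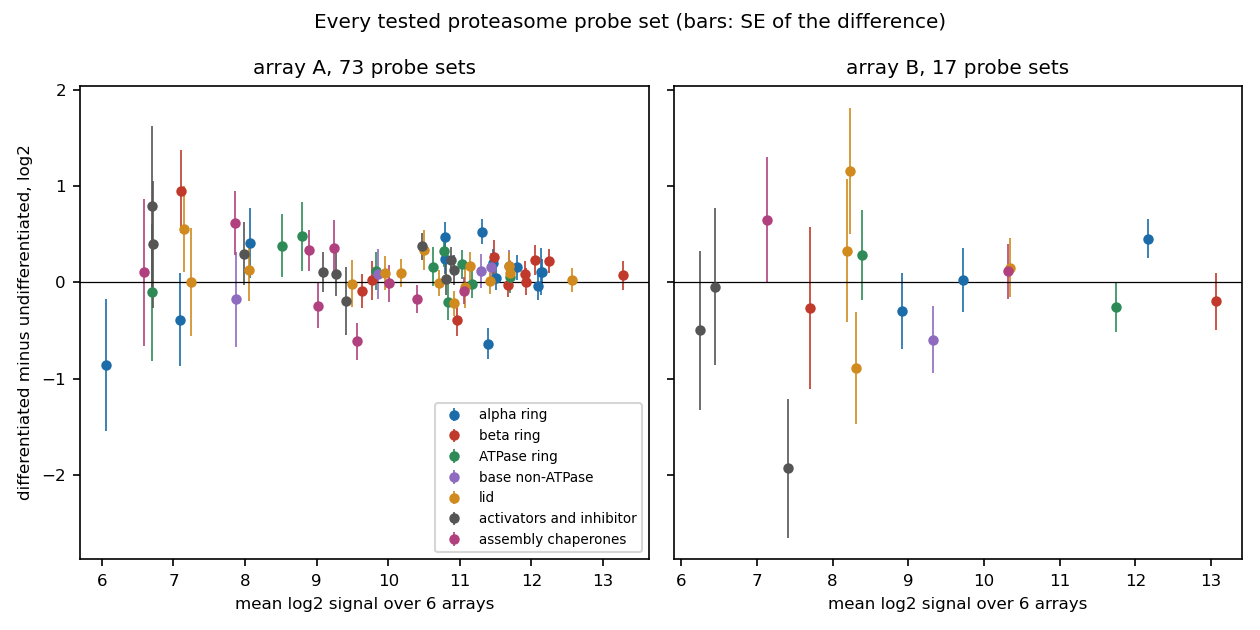
Every tested proteasome probe set on array A (73) and array B (17). The horizontal axis is the mean log2 signal over the 6 arrays of a type, the vertical axis the differentiated minus undifferentiated log2 difference, and bars are its SE. Differences of probe sets with a mean log2 signal of at least 10 on array A stay between -0.63 and 0.53, and the largest ones on either array belong to dim probe sets with long bars.

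For 26 genes at least 2 probe sets were tested, counting both arrays, and in 17 of them the differences had both signs. These were Psma1, Psma5, Psmb1, Psmb5, Psmc1, Psmc2, Psmc4, Psmc5, Psmd2, Psmd4, Psmd7, Psmd11, Psmd13, Psme3, Psme4, Psmg2 and Psmg4. The spread between probe sets of a gene was widest for Psme4, from -1.93 to 0.37, and narrowest for Psmd7, from -0.01 to 0.01. For Psmd13 it ran from -0.89, on array B, to 0.34, for Psme3 from -0.19 to 0.79, and for Psmg2 from -0.01 to 0.36. It was smaller for Psmc1 (-0.10 to 0.12), Psmc2 (-0.02 to 0.28) and Psmd4 (-0.17 to 0.12). Psma3, Psma6, Psma7, Psmb4, Psmc6, Psmd6, Psmd9 and Psmf1 lay above 0 by every tested probe set, and Psmb3 below by both. None of these counts rests on a difference that passed the test.

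On array A, 52 of 73 probe sets lay above 0, beside 9295 of all 18025. This count was 52 of 73 without U1, 51 of 73 without U2 and 49 of 72 without U3, with medians of 0.12, 0.09 and 0.10. It was not seen against U1 alone. D1 to D3 and U1 were hybridised to arrays of 1 lot, and U2 and U3 to another lot. Against U1 alone, within that lot, the mean of D1 to D3 was higher for 33 of the 73, lower for 39 and the same for 1, with a median of -0.02, beside -0.02 over all probe sets. The beta ring had 2 of 11 above U1 and the ATPase ring 3 of 10, with medians of -0.09 and -0.10. The assembly chaperones had 3 of 9 above it, with a median of -0.17. The activators and inhibitor had 8 of 10 above it and the base outside the ATPase ring 4 of 5, with medians of 0.22 and 0.165. In the alpha ring 6 lay above and 6 below, and in the lid 7 above and 8 below. Relative to the mean of U1 to U3, the 73 probe sets had a median of 0.02 for D1, 0.17 for D2, 0.18 for D3, 0.06 for U1, -0.05 for U2 and -0.04 for U3. U1 thus lay above D1, U2 and U3 and below D2 and D3. Psma7, Psma1 and Psmg4 had groups that did not overlap, which fixes their sign against U1 in advance, so this is no further check. The differentiated means of Psma7 and Psma1 lay 0.39 and 0.22 above U1, and that of Psmg4 lay 0.56 below it. On array A the fluidics station divides the arrays exactly as the groups do, so on that array its effect and that of differentiation cannot be told apart. On array B, D1 to D3 and U1 shared a station and U2 and U3 were run on another, so there only U1 shares it with the differentiated RNAs.

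**Figure D4:**
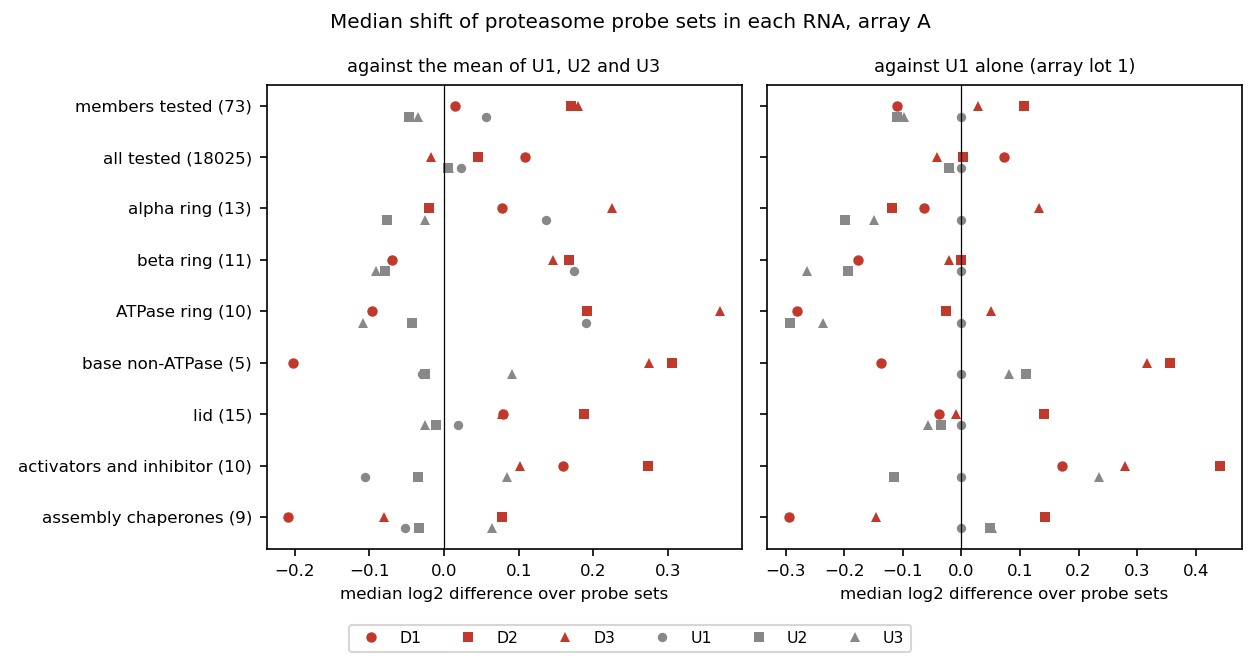
Median log2 difference of the proteasome probe sets of each role in each RNA on array A, against the mean of U1, U2 and U3 (left) and against U1 alone (right), with the number of probe sets in brackets. Red marks are D1 to D3 and grey marks U1 to U3. On the left most red marks of D2 and D3 lie right of 0, and on the right the marks of the beta and ATPase rings lie near or left of 0.

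D1 was often the lowest differentiated RNA among the members, a count made after the values were seen. It was the lowest of the 3 for 40 of the 73 probe sets (54.8%), beside 34.2% of all tested. That background was not matched for brightness, and members are brighter than most probe sets. The count was 8 of 11 in the beta ring, 7 of 10 in the ATPase ring and 4 of 5 in the base outside it. For the assembly chaperones it was 6 of 9, and for the lid 7 of 15. It was 4 of 10 for the activators and inhibitor and 4 of 13 for the alpha ring. On array A, D1 also had the lowest median correlation with the other arrays (0.883, the rest between 0.913 and 0.923) and the highest 3'-over-5' value of the actin controls, which tracks RNA integrity (0.70 on the log2 scale, the rest between 0.13 and 0.31). Its part in the low D1 values was not tested. Without D1, 56 of 74 tested probe sets lay above 0, with a median of 0.17, and 0 were called, with a lowest adjusted p of 0.0713, for Psma5. On array B, U2 had the lowest median correlation (0.705, the rest between 0.815 and 0.855), and without it 8 of the 17 lay above 0 and 0 were called.

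Partners of the proteasome and its ubiquitin supply were followed by 2 further lists. Of 18 partners, which bind the proteasome, build it or control its genes, 15 were measured and tested, 0 were called, 10 lay above 0, and the median was 0.32. Among them Sem1, itself a small lid subunit, had 11.70, 11.51 and 11.62 in D1 to D3 against 11.38, 11.21 and 11.20, without overlap (0.34 ± 0.13, SE, adjusted p = 0.203). Of 18 genes of ubiquitin supply, shuttling and extraction, 12 were measured and tested, 1 rose and 0 fell, and the median was 0.13. On array A, 2.87% of all probe sets were called, and 8.32% of those with a mean log2 signal of at least 10. The 1 call among 12 is thus near the share of bright probe sets. The one that rose was Ubqln2, a shuttle that carries ubiquitinated proteins to the proteasome, with 11.50, 10.88 and 11.33 in D1 to D3 against 10.36, 9.96 and 9.90 in U1 to U3. All differentiated RNAs lay above all undifferentiated ones, by 1.17 ± 0.19 (SE), a fold of 2.25 (limma adjusted p = 0.00882). With the array lot as a block the difference of Ubqln2 was 0.88 and its adjusted p = 0.233, and without U2 or U3 the adjusted p was 0.0515 and 0.0521.

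Vcp, the ATPase that extracts ubiquitinated proteins, had 12.50, 12.80 and 12.70 against 12.34, 12.30 and 12.32, without overlap (0.34 ± 0.12, SE, adjusted p = 0.186), and its cofactor Ubxn1 lay at 0.44 ± 0.19 (SE, adjusted p = 0.29). Among the partners, Ecpas, an adaptor of the proteasome, lay at 1.12 ± 0.49 (SE, adjusted p = 0.298), Akirin2, which helps to import proteasomes into the nucleus, at 0.58 ± 0.22 (SE, adjusted p = 0.215), and the importin Ipo9, which acts with it, at 0.53 ± 0.19 (SE, adjusted p = 0.196), with groups apart for Ipo9 alone of these 3. The regulator Nfe2l1 lay at -0.27 ± 0.19 (SE) and Nfe2l2 at 0.13 ± 0.19 (SE). For comparison with complexes of like ubiquity, the chaperonin TRiC had 0 of 8 genes called and a median of 0.16, and the COP9 signalosome, a relative of the lid, had 0 of 10 called and a median of 0.02.

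The groups did differ in other genes of the same arrays. Of 8 extraembryonic endoderm markers 6 of 7 tested rose and 0 fell, and of 10 fibroblast markers 4 of 9 tested fell and 0 rose. Of 8 stem cell markers 1 was called, Tdgf1, which fell, and 7 lay below 0, with a median of -0.59. In 4 of the 8 every differentiated RNA lay below every undifferentiated one, beside 10.1% of all probe sets on array A. Besides Tdgf1 these were Zfp42 (-1.18, limma adjusted p = 0.127), Dppa5a (-1.05, adjusted p = 0.096) and Pou5f1 (-0.27, adjusted p = 0.352). None of the markers was at the signal floor on all 6 arrays. The summed signal of the fibroblast markers ran from 1424 to 2678 in differentiated and from 6318 to 6544 in undifferentiated RNAs. That of the endoderm markers ran from 5430 to 5695 and from 1273 to 1560. For the stem cell markers it ran from 21926 to 42883 and from 53108 to 60494. The brightest of these, Dppa5a, weighs most in that linear sum, while Sox2 and Sall4 differed by -0.03 and 0.01. For 7 leukocyte markers, of which 4 were tested and 0 called, the sum ran from 1296 to 1552 and from 1423 to 1786. These shifts accompany every comparison above, and their part in the proteasome values was not tested. In bulk RNA, fewer cells of a type and less RNA per cell cannot be told apart.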

How the data were processed

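The authors deposited signal intensities, linear and made with MAS5 per the submitters' processing notes, with the version, target and build not given in the sources used here. The 2% trimmed mean of every deposited array lay between 1500.1 and 1500.5, so the authors' files hold arrays scaled to a common mean, which hides changes in total RNA per cell. Median deposited signals ran from 674.6 to 1047.6, and the number of arrays limits the precision. The experiment settings of each array, of no fixed unit and deposited by the authors as other data, gave the lot, station and scan day.

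For the tests, 1 factor per array brought the 2% trimmed mean to 500, a floor of 32 was applied and values were converted to log2. Controls and probe sets averaging under 6 on that scale were dropped, and a floor understates changes of dim probe sets. Differences were tested with limma 3.58.1 in R 4.3.3 (lmFit, eBayes with an intensity trend, two-sided), for each array type alone, with Benjamini-Hochberg adjustment over its probe sets and a threshold of 0.05. The fitting code was tested on simulated data. For 3 RNAs against 3, an exact permutation test of a single value cannot go below p = 0.1. In the platform's gene annotation, 20380 probe sets of array A carry 1 symbol, 691 several and 1555 none, and for array B these counts are 14661, 245 and 7605, with 64 controls on each. Of those with 1 symbol, 20351 and 14486 matched the RefSeq gene table and 0 needed updating. Genes without such a probe set, Psme2 among them, were not analysed here.

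Named with values are, for each role, the genes with the 2 largest and the smallest absolute difference, the catalytic and immunoproteasome subunits, members whose probe sets differ in direction, and the 3 largest differences of each partner list. A few more (Psmb3, Psmd14, Psme1, Psmd5, Psmd9, Sem1, Nfe2l1, Nfe2l2) were added after their values were seen. The members, lists and motifs were chosen with earlier results of these data known.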

Additional observations from a re-analysis of the deposited data

How the results depend on the processing

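Every alternative left 0 proteasome probe sets called on both arrays, except the replicate block, which gave 1 on array A, a Psma5 probe set (-0.63, adjusted p = 0.0441, while the other settings reached 0.458). The numbers were not taken as pairs: deviations of same-numbered RNAs correlated at 0.01 to 0.16 on array A and 0.10 to 0.18 on array B, on array B every RNA correlated best with its own number, and on array A not every one did. The median member difference on array A turned from 0.11 to -0.016 with the lot block, where only U1 shares a lot with D1 to D3, and was 0.07 to 0.17 without each RNA in turn. On array B it was -0.04, and without each RNA in turn it ran from -0.22 (without D2) to 0.15 (without D3). Of the 73 member differences on array A, 25 changed sign under the lot block.

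The calls over all probe sets moved more. Array A gave 518, and 307 with median centring, 194 both with a floor of 64, which lets every probe set through, and without a filter, 97 without the intensity trend, 106 with the lot block, 319 with adjustment over both arrays, 724 with the replicate block and, leaving out single RNAs, 190 to 497. Array B gave 4, and 2 with a floor of 16 or median centring, 1 without a filter or with the replicate block, 10 with adjustment over both arrays, 0 with a floor of 64, without the trend or with the station block, and, leaving out single RNAs, 0 to 2. The Ubqln2 call also ended with a floor of 64 (adjusted p = 0.107), without a filter (0.0911) and without the trend (0.131), and over its alternatives the adjusted p ran from 0.00268 to 0.233. Low signal limits the precision: among members with a mean log2 signal under 10, the 95% interval lay inside 2-fold for 13 of 29 on array A and 1 of 12 on array B.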
